A study of Arabidopsis thaliana with 64 samples.

Results

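The dehydration response of bes1-D leaves was measured by RNA-seq in 6 libraries of Arabidopsis thaliana, 3 labelled bes1-D control and 3 labelled bes1-D dehydration. They were taken by genotype and treatment label from the 40 libraries with deposited values; the labels name 64. Both groups were leaf tissue of plants aged 4 weeks, grown with 16 hours of light a day, and the dehydrated plants were treated for 4 hours. The same pair of groups in WT, 6 libraries with no sample in common, served for comparison. The whole study also holds atg7-2, DSK2 RNAi and bri1-301 leaves and plants starved of fixed carbon.

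The plant hormone abscisic acid (ABA) accumulates when leaves lose water. Its PYR and PYL receptors then inhibit clade A protein phosphatases, which frees SnRK2 kinases to activate ABF bZIP factors, and these switch on genes for protective proteins such as dehydrins. BES1 is a transcription factor at the end of the brassinosteroid pathway, a hormone pathway of growth, and bes1-D is a dominant allele that makes a stabilised, more active BES1 protein. Every bes1-D library carries that allele, controls included, so the comparison shows what water loss does in plants that carry it. BES1 protein and its activity were not measured in these libraries. The mutation changes the protein, so a transcript level does not check the genotype, and the labels name neither the accession background nor the number of plants pooled. Whether the 3 libraries of a group stem from different plants is not in the labels. The p-values therefore cover the spread among the libraries at hand, part of which can be technical.

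Values are reads scaled to library size, under the authors' name RPM, and a change is a difference of log2(RPM + 0.5), which understates the change of low genes. The 6 libraries held about 26836800 to 29396400 recovered reads each, and 3 reads in a library were worth 0.103 to 0.111 RPM. The 5 leaf mesophyll markers (CAB2, CAB3, CA1, RCA and RBCS1A) summed to 21182 to 35073 RPM in control and 25970 to 27516 in dehydrated bes1-D leaves, as the tissue label says. No marker of floral organs (7 genes), guard cells (7), xylem (6), epidermis (5) or phloem (4) was called. Their summed levels overlapped between the groups, with 16.0 to 36.7 RPM in control and 23.1 to 30.9 RPM in dehydration for guard cells and 1.45 to 4.14 and 1.17 to 3.04 RPM for floral organs. In whole leaves fewer cells of a type and less RNA per cell cannot be told apart. Replicate 3 of both bes1-D groups stood apart. Its log2 values leaned toward short transcripts, with a slope per log2 unit of length of -0.42 in the control library and -0.50 in the dehydrated one. The other controls had -0.14 and -0.15 and the other dehydrated libraries -0.03. WT dehydration replicate 3 had a like slope (-0.57). In bes1-D control replicate 3 the 10 highest genes held 16.8% of the signal. They held 11.6% and 9.45% in the other controls and 12.2% in each dehydrated library. Its size factor under median-of-ratios scaling was 0.673, against 0.951 and 1.11 in the other controls and 0.900 to 0.994 in the dehydrated libraries.

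Dehydration changed 233 of 19824 tested genes in bes1-D (1.18%; limma, adjusted p under 0.05), and more fell than rose. The 79 raised genes (0.399%) were led, among those with a symbol, by the expansin EXPA16, the protective protein RD29B, the lipid transfer protein LTP3 and the wax elongase KCS2, and rose by a median of 2.18-fold. The 154 lowered genes (0.777%) were led by the AP2 factor DDF1, the ABA receptor PYL6, the lipoxygenase LOX4, the AP2 factor DDF2 and the calcium sensor CML38, and fell by a median of 2.38-fold. The 3 control and 3 dehydrated libraries did not overlap in 78 of the 79 raised genes and 149 of the 154 lowered genes. Over all tested genes they were separate and higher in 5.01% and separate and lower in 3.39%. Genes called on these same libraries are likely to be separate, so this is a description and no further support for the calls. In control leaves the lowered genes had a median of 32.6 RPM, the raised genes 5.50 RPM and all tested genes 10.1 RPM. In dehydrated leaves the medians were 11.1, 15.6 and 10.5 RPM. Genes called lower tend to be picked for high control values and genes called higher for low ones, so this order partly follows from the calls. The median change over all tested genes was 0.06 on the log2 scale.

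The balance between higher and lower depended on the scaling and the tool, and the number of calls on single libraries. With median-of-ratios scaling 35 genes were higher and 222 lower, and 28 of the 79 raised and 136 of the 154 lowered genes remained called. DESeq2 called 92 higher and 320 lower. Without control replicate 1 the count was 20, without dehydration replicate 1 it was 65 and without dehydration replicate 2 it was 89. Deviations of same-numbered control and dehydrated libraries correlated weakly (0.27, 0.16 and 0.26). With the number as a replicate block the 6 libraries alone gave 0 calls, although 1541 genes had an unadjusted limma p under 0.05. With the spread taken from all libraries the blocked fit gave 254 calls, 223 of them shared.

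**Figure D1:**
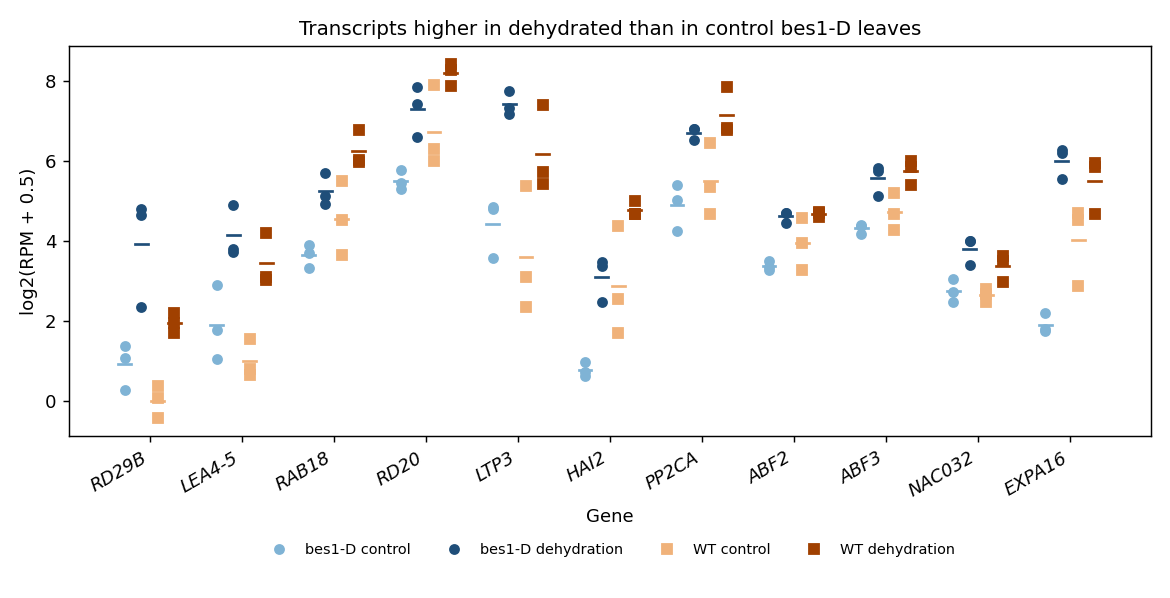
Levels of 11 raised genes in single libraries, as log2(RPM + 0.5) on the vertical axis; circles are bes1-D, squares WT, light colours control, dark colours dehydration, and short lines mark group means. In bes1-D the dehydrated libraries of each gene lie above its control libraries, from 1.04 to 1.47 up to 5.07 to 10.5 RPM for HAI2 and from 2.84 to 4.08 up to 46.2 to 77.0 RPM for EXPA16.

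Genes for protective proteins formed the largest group among the raised list members. Of 18 protective and dehydration-responsive genes 4 rose (RD29B, LEA4-5, RD20 and RAB18), against 0.399% of all tested genes, and none fell. The median change of the 18 was 1.30 against 0.06 over all tested genes. RD29B, a hydrophilic protein classically used as an ABA reporter, was 1.61, 0.718 and 2.11 RPM in the control libraries and 27.4, 24.5 and 4.62 RPM in the dehydrated ones. The groups did not overlap, but dehydration replicate 3 reached a much lower level than the rest (log2 change 3.02, SE 0.72, limma adjusted p = 0.0315). LEA4-5, a late embryogenesis abundant protein, went from 2.91, 1.57 and 7.00 RPM to 13.5, 29.2 and 12.7 RPM (log2 change 2.23, SE 0.54, limma adjusted p = 0.0315). RAB18, a dehydrin, was 14.4, 9.60 and 12.6 RPM in control and 34.4, 51.4 and 29.7 RPM in dehydration (log2 change 1.60, SE 0.36, limma adjusted p = 0.0226). RD20, a caleosin of lipid droplets, was 38.9, 43.2 and 54.2 RPM in control, all below its 171, 231 and 96.0 RPM in dehydration (log2 change 1.78, SE 0.46, limma adjusted p = 0.0493).

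Another 7 protective genes were separate between the groups and higher without passing the test over all genes. They were COR15A, COR15B, KIN1, KIN2, RD22, RD29A and LEA7, with log2 changes from 0.99 for COR15B to 1.91 for LEA7. With the called genes, 11 of the 18 were separate and higher, against 5.01% of all tested genes. KIN2, one of the most abundant, had 882, 835 and 1529 RPM in control and 2330, 2609 and 2261 RPM in dehydration (log2 change 1.20, limma adjusted p = 0.053). KIN1 and KIN2, like COR15A and COR15B, are close copies, and the sources used here do not say how reads common to a pair were counted. The calls of RAB18, RD20 and LEA4-5 were lost with median-of-ratios scaling, that of RD29B was kept, and all 4 were lost without control replicate 1.

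The 300 bases upstream of RD29B and RAB18 are shown because both genes are textbook targets of ABF factors, which bind the ABA-responsive element with the core ACGTG. Sequences were read from the RefSeq TAIR10.1 assembly with its own gene starts, each 5′ to 3′ on the gene's strand, at chr5:21236721-21237020 (plus strand) and chr5:26519448-26519747 (minus strand). Capitals mark ACGTG, or CACGT where the match lies on the other strand.
RD29B: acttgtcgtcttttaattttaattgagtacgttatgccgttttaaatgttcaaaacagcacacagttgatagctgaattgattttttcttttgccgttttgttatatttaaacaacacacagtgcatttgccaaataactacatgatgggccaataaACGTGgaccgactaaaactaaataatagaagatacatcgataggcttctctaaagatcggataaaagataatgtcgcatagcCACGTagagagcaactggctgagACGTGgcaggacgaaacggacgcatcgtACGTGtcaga
RAB18: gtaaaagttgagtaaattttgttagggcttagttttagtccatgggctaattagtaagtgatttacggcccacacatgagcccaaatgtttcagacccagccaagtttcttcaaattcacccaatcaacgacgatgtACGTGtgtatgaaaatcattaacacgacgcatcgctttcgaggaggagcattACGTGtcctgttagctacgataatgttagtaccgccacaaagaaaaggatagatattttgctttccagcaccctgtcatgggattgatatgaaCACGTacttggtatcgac
The RD29B window held 4 matches, the nearest 10 bases before the gene start, and the RAB18 window held 3. Over all 79 raised genes 51.9% had at least 1 ACGTG on either strand in this window and 32.9% had 2 or more. Over the 154 lowered genes the shares were 33.8% and 16.2%, and over the 19744 tested genes with a window 26.7% and 11.2%. The palindrome CACGTG was in 22.8% of raised, 9.74% of lowered and 8.29% of all windows. Each copy holds ACGTG on both strands and counts as 2 matches, so a window with 2 or more can hold a single palindrome. A match describes these letters and is not a measured binding site, and LTP3, one of the most raised genes, had none.

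The core of ABA signalling changed at the phosphatases, 1 receptor and 2 bZIP factors. Of 9 clade A phosphatases, the negative regulators that the receptors inhibit, 2 rose (HAI2 and PP2CA), against 0.399% of all tested genes. None fell, and the median change was 1.08. HAI2 was 1.47, 1.16 and 1.04 RPM in control and 9.84, 10.5 and 5.07 RPM in dehydration (log2 change 2.33, SE 0.53, limma adjusted p = 0.0224). PP2CA was 32.0, 18.6 and 41.5 RPM in control and 110, 91.6 and 111 RPM in dehydration (log2 change 1.81, SE 0.39, limma adjusted p = 0.0163). For both genes the lowest dehydrated library exceeded the highest control. HAI1, ABI1, ABI2 and HAB1 were also separate and higher but missed the threshold, with log2 changes from 0.94 for ABI1 (limma adjusted p = 0.05) to 1.61 for HAI1 (limma adjusted p = 0.0854). With the called genes, 6 of the 9 were separate and higher, against 5.01% of all tested genes.

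The HAI2 upstream window (TAIR10.1, chr1:2282829-2283128, minus strand) is shown because HAI2 was the most raised of the phosphatases, and it held 5 matches to the same ACGTG core.
HAI2: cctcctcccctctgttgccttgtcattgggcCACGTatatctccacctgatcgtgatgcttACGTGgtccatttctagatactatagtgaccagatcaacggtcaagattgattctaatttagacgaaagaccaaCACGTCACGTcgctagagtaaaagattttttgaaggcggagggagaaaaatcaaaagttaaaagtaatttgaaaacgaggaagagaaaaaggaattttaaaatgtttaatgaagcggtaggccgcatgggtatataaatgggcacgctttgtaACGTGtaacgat
Capitals again mark ACGTG or CACGT, and the longest run of capitals is a pair of adjoining matches.

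Among the ABA receptors the direction was opposite. PYL6 fell from 5.95, 4.13 and 6.89 RPM in control to 0.311, 0.663 and 0.655 RPM in dehydration (log2 change -2.56, SE 0.58, limma adjusted p = 0.0214). It was the one called member of 9, against 0.777% of all tested genes called lower. PYL4 went from 102, 61.8 and 88.6 RPM to 19.3, 26.8 and 19.5 RPM (log2 change -1.90, limma adjusted p = 0.0718) and PYL5 from 44.0, 27.9 and 56.1 RPM to 9.22, 14.5 and 10.2 RPM (log2 change -1.84, limma adjusted p = 0.0865). Those 3 receptors, PYL1 and PYL2 had all 3 dehydrated libraries below all 3 controls, 5 of the 9 in all (3.39% of all tested genes), and the list's median change was -0.49. Of 8 kinases and bZIP factors ABF2 and ABF3 rose, against 0.399% of all tested genes. ABF2 was 9.69, 10.8 and 9.23 RPM in control and 25.6, 25.4 and 21.4 RPM in dehydration (log2 change 1.24, SE 0.24, limma adjusted p = 0.00512), and ABF3 was 20.4, 20.7 and 17.6 RPM and 53.1, 56.0 and 34.2 RPM (log2 change 1.24, SE 0.31, limma adjusted p = 0.0405). Both sets were separate, and the ABF2 replicates were the tighter.

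None of 11 tested genes of ABA synthesis and breakdown was called. NCED3, the stress-induced dioxygenase at the committed step of ABA synthesis, was 16.6, 12.4 and 12.5 RPM in control and 28.5, 31.5 and 21.5 RPM in dehydration (log2 change 0.94, SE 0.33, limma adjusted p = 0.248). CYP707A2, a hydroxylase that breaks ABA down, gave a like value (log2 change 0.94, limma adjusted p = 0.143). In both genes the groups were separate. AFP3, a protein that binds the ABA factor ABI5, and the homeodomain factor HB-12 rose as well, by log2 1.44 (limma adjusted p = 0.0146) and 1.41 (limma adjusted p = 0.0321). These last 2 genes were chosen after their values were seen.

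The largest rise of all tested genes was that of EXPA16, an alpha-expansin, a family of proteins that loosen cell walls. EXPA16 was 2.84, 2.97 and 4.08 RPM in control and 46.2, 77.0 and 72.5 RPM in dehydration (log2 change 4.09, SE 0.57, limma adjusted p = 0.000162). The call held in each alternative fit but the replicate block of the 6 libraries alone (limma adjusted p = 0.0717). None of the 25 listed growth factors and wall enzymes was called, however, and their median change was -0.15. XTH22, a touch-induced wall enzyme, was 188, 92.2 and 43.1 RPM in control and 18.1, 25.2 and 22.9 RPM in dehydration (log2 change -2.03, limma adjusted p = 0.175), and 6 of the 25 were separate and lower (3.39% of all tested genes) against 1 separate and higher (PRE1; 5.01% of all). XTH18, a related wall enzyme outside that list, fell from 23.5, 16.7 and 5.97 RPM to 2.76, 4.22 and 1.86 RPM (log2 change -2.07, SE 0.53, limma adjusted p = 0.0457).

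Genes of the leaf's waterproof surface and of water transport were also among the raised. LTP3, a lipid transfer protein, was 28.5, 11.5 and 27.5 RPM in control and 145, 214 and 160 RPM in dehydration (log2 change 3.00, SE 0.71, limma adjusted p = 0.0315), the one called member of 12 cuticular wax and lipid transfer genes, whose median change was 0.70. The wax genes CER1, CER4, CER6 and WSD1 and LTP4, a close copy of LTP3, were separate and higher without a call, at log2 0.44 (CER4) to 2.37 (LTP4). With LTP3, 6 of the 12 were separate and higher. Over all tested genes 5.01% were separate and higher and 0.399% called higher. KCS2, a fatty acid elongase of suberin and wax, rose from 4.18, 3.38 and 2.74 RPM to 23.7, 43.7 and 11.7 RPM (log2 change 2.60, SE 0.62, limma adjusted p = 0.0308). Of 15 aquaporins PIP1;4 rose by log2 1.12 (SE 0.27, limma adjusted p = 0.0347) and PIP1;1 by 0.68 (SE 0.17, limma adjusted p = 0.0401). PIP1;4 was 226, 254 and 266 RPM in control and 428, 653 and 568 RPM in dehydration, a clear gap. PIP2;1, PIP2;2, PIP2;3 and PIP2;5 were separate and higher, and PIP1;5 and TIP2;1 separate and lower, all without a call. With the called genes, 6 of the 15 were separate and higher and 2 separate and lower, against 5.01% and 3.39% of all tested genes. Both PIP calls were lost with median-of-ratios scaling, under edgeR and under DESeq2.

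No listed gene of sugar or proline metabolism was called, although several were separate between the groups. Of 10 raffinose and trehalose genes 6 were separate and higher, as were 5.01% of all tested genes, with a median change of 0.78 over the list. GOLS2, a galactinol synthase induced by drought, was 14.9, 5.95 and 8.26 RPM in control and 62.3, 45.1 and 28.1 RPM in dehydration (log2 change 2.19, SE 0.62, limma adjusted p = 0.0865). P5CS1, which makes proline from glutamate, was 101, 70.1 and 67.6 RPM and 334, 277 and 116 RPM (log2 change 1.49, SE 0.46, limma adjusted p = 0.136). For both genes the dehydrated library nearest the controls was replicate 3. Of 6 proline genes none was called, and the list's median was 0.05.

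Several other raised transcripts belong to no stress list or stood alone in theirs. LBD1, a LOB domain factor, rose from 1.81, 1.54 and 2.37 RPM to 7.83, 16.4 and 6.38 RPM (log2 change 2.05, SE 0.39, limma adjusted p = 0.00469). TSPO, an ABA-induced membrane protein that binds porphyrins, was 0.513, 0.308 and 0.556 RPM in control and 3.93, 10.6 and 2.34 RPM in dehydration (log2 change 2.45, SE 0.63, limma adjusted p = 0.048). Both were low in every control library. HIPP22, a protein with a heavy-metal binding domain, rose by log2 1.87 (limma adjusted p = 0.0362). ARR6, a type-A response regulator that damps cytokinin signalling, was the one called member of 8 tested in its list and rose from 4.55, 4.41 and 1.70 RPM to 6.18, 7.71 and 10.9 RPM (log2 change 1.17, SE 0.30, limma adjusted p = 0.0457). NAC032 was the one called gene of 8 stress NAC factors (log2 change 1.05, SE 0.26, limma adjusted p = 0.0407). Over all tested genes 0.399% were called higher. The calls of ARR6, HIPP22, NAC032 and PP2CA were lost with median-of-ratios scaling and under edgeR. That of TSPO was lost with median-of-ratios scaling and that of LTP3 under edgeR.

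RD26, the NAC factor that works against BES1 in drought, was 36.8, 45.5 and 31.1 RPM in control and 53.0, 62.5 and 50.7 RPM in dehydration. The groups did not overlap, and the change missed the threshold (log2 0.56, SE 0.23, limma adjusted p = 0.413). In WT RD26 went from 69.4, 73.7 and 126 RPM to 145, 158 and 207 RPM (log2 change 0.96, limma adjusted p = 0.0522), so each WT library stood above each bes1-D library. The bes1-D minus WT difference of the response was -0.40 (SE 0.32, limma adjusted p = 0.918). BES1 itself was 507, 425 and 340 RPM in control and 433, 332 and 541 RPM in dehydrated bes1-D leaves (log2 change 0.03, SE 0.18, limma adjusted p = 1). The groups overlapped, all 6 values lay above the highest of the 32 libraries of other genotypes (326 RPM), and the sign of this small change turned under other scalings.

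No listed brassinosteroid gene was called. None of 12 synthesis and breakdown genes and none of 13 tested receptor and signalling genes was called, with medians of -0.01 and 0.03. CPD, a cytochrome P450 of brassinosteroid synthesis that BES1 represses, was 54.0, 43.2 and 58.1 RPM in control and 34.0, 34.5 and 37.6 RPM in dehydration (log2 change -0.53, SE 0.19, limma adjusted p = 0.252). BAS1, which inactivates brassinosteroids, was 9.27, 14.8 and 10.1 RPM in control and 17.6, 19.7 and 18.0 RPM in dehydration (log2 change 0.70, SE 0.21, limma adjusted p = 0.109). Both were separate between groups in opposite directions. The receptor gene BRI1 (log2 change -0.43) and the kinase gene BIN2, a negative regulator (0.12), overlapped.

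**Figure D2:**
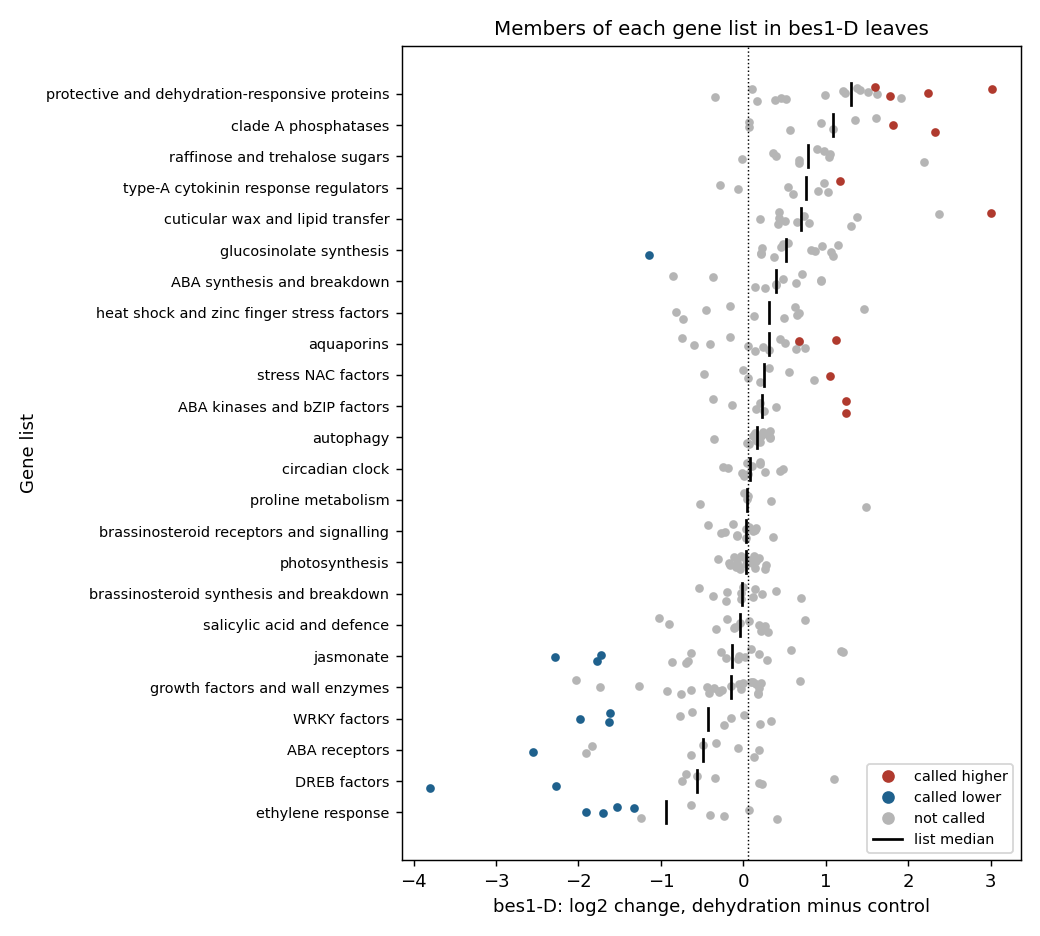
Log2 change of each member of 24 gene lists in bes1-D, dehydration minus control, on the horizontal axis, with the lists ordered by their median (black bar); red points are called higher, blue points lower and grey points not called, and the dotted line is the median of all tested genes, 0.06. Protective proteins (median 1.30) and clade A phosphatases (1.08) stand at the top, DREB factors (-0.57) and ethylene response genes (-0.94) at the bottom.

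The deepest fall of all tested genes was that of DDF1, and its close relative DDF2 was lower too. Both encode AP2 factors of the DREB family that are known to raise stress tolerance and to restrict growth. DDF1 fell from 40.6, 12.2 and 16.7 RPM in control to 0.966, 0.977 and 1.03 RPM in dehydration (log2 change -3.80, SE 0.26, limma adjusted p = 5.1e-11). DDF2 fell from 5.30, 1.47 and 1.82 RPM to 0.138, 0.0698 and 0.138 RPM (log2 change -2.28, SE 0.20, limma adjusted p = 2.59e-08), near the level of 3 reads. DDF2 passed the filter on low values through the bes1-D control libraries alone, since no other library exceeded 0.203 RPM, and its SE rests largely on libraries near 0, so its p-value carries no weight. In both genes control replicate 1 was the highest and the groups were far apart. In the 32 libraries of other genotypes DDF1 had a median of 0.239 RPM and reached at most 1.70 RPM. In the 2 starved bes1-D libraries it had 0.236 and 0.580 RPM, so the control bes1-D leaves were the libraries in which it was abundant. Its SE thus also rests largely on libraries near 0, while the 3 controls were far apart. The p-value of DDF1 therefore carries little weight. With the replicate block of the 6 libraries alone its limma adjusted p was 0.222. The other 7 listed DREB factors were not called. DREB1A, a cold-induced member, was separate and higher (log2 change 1.09, limma adjusted p = 0.267), and the drought-induced DREB2A overlapped (log2 change -0.57).

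The DDF2 window (TAIR10.1, chr1:23368417-23368716, minus strand) is shown as an example of CGCGTT, a core bound by calmodulin-binding CAMTA factors. Capitals mark the match, 68 bases before the gene start.
DDF2: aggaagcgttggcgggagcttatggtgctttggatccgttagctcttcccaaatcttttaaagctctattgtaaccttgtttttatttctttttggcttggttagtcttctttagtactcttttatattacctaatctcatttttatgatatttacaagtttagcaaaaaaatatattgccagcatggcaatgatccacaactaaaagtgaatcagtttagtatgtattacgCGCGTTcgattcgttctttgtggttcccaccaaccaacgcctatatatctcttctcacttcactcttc
CGCGTT was found on either strand in 9.74% of the 154 lowered windows, 1.27% of the 79 raised and 3.32% of all. The DDF1 window held no CGCGTT on either strand, which says nothing about other sequences that CAMTA factors may bind.

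**Figure D3:**
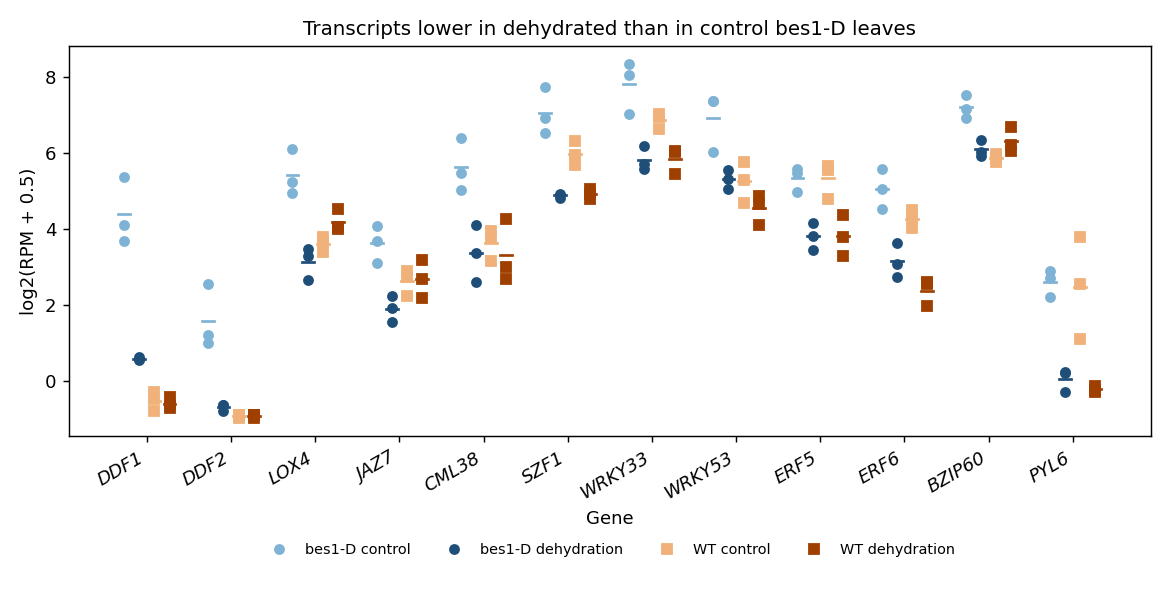
Levels of 12 lowered genes in single libraries, as log2(RPM + 0.5) on the vertical axis, with circles for bes1-D, squares for WT, light colours for control, dark colours for dehydration and short lines for group means. The 3 bes1-D control libraries lie highest for DDF1 (12.2 to 40.6 RPM), DDF2 and LOX4 (30.0 to 67.7 RPM), while PYL6 and ERF5 fall in both genotypes.

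Jasmonate genes were lowered at 3 of 18 listed members, against 0.777% of all tested genes. LOX4, a lipoxygenase that feeds jasmonate synthesis, fell from 67.7, 37.2 and 30.0 RPM to 9.32, 10.6 and 5.72 RPM (log2 change -2.29, SE 0.39, limma adjusted p = 0.00179). JAZ7 and JAZ8, jasmonate-induced repressors of the pathway, fell by log2 1.73 (SE 0.33, limma adjusted p = 0.00512) and 1.77 (SE 0.43, limma adjusted p = 0.0359). JAZ7 was 16.3, 12.3 and 8.08 RPM in control and 2.42, 4.19 and 3.24 RPM in dehydration, with no overlap. The storage proteins VSP1 and VSP2, late jasmonate targets, were separate and higher without a call, at 0.58 and 1.18. Of the 18 members 3 were separate and higher and 3 separate and lower, against 5.01% and 3.39% of all tested genes. The list's median was -0.14. Outside the list 2 jasmonate genes rose, and both were chosen after their values were seen. JRG21, a jasmonate-regulated gene, rose by log2 1.29 (limma adjusted p = 0.0487). JMT, a jasmonic acid carboxyl methyltransferase, rose by log2 1.15 (limma adjusted p = 0.0436).

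Ethylene and WRKY factors fell in several members at once. Of 10 ethylene response genes 4 fell (ERF6, ACS6, ERF5 and ERF2), against 0.777% of all tested genes, none rose, and the median change was -0.94. ERF6 was 47.4, 22.6 and 32.6 RPM in control and 7.94, 6.14 and 11.9 RPM in dehydration (log2 change -1.91, SE 0.37, limma adjusted p = 0.00512). ERF5, its close relative, was 46.8, 43.9 and 30.8 RPM and 13.4, 10.4 and 17.3 RPM (log2 change -1.53, SE 0.30, limma adjusted p = 0.00624). ACS6, a synthase of the ethylene precursor, was 49.6, 41.2 and 22.0 RPM in control and 9.91, 9.35 and 12.7 RPM in dehydration (log2 change -1.71, SE 0.44, limma adjusted p = 0.0498). All 3 were separate. ERF2 fell by log2 1.32 (limma adjusted p = 0.00843).

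Of 10 WRKY factors WRKY33, WRKY40 and WRKY53, regulators of defence and senescence, fell, against 0.777% of all tested genes. WRKY33 was 326, 263 and 129 RPM in control and 52.2, 72.4 and 46.9 RPM in dehydration (log2 change -1.98, SE 0.38, limma adjusted p = 0.00512). WRKY53 was 164, 164 and 65.1 RPM and 32.3, 46.4 and 39.3 RPM (log2 change -1.62, SE 0.41, limma adjusted p = 0.0411), and WRKY40 fell by log2 1.63 (limma adjusted p = 0.036). In each of the 3 genes control replicate 3 was the lowest control and still stood above every dehydrated library. WRKY46, WRKY54 and WRKY70, which act with BES1 in growth and drought, were not called. WRKY46 was 13.4, 14.5 and 5.08 RPM in control and 4.49, 9.70 and 4.10 RPM in dehydration (log2 change -0.77, limma adjusted p = 0.591), WRKY54 changed by log2 -0.15 and WRKY70 by 0.00, and all 3 overlapped. Without the low-value filter the calls of WRKY40, WRKY53, MYB51 and ACS6 were lost, and without control replicate 1 every WRKY and ERF call was.

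WRKY proteins bind the W-box, with the core TTGAC. The WRKY33 window (TAIR10.1, chr2:16107935-16108234, plus strand) is shown because WRKY33 is known to act on its own promoter, and it held 3 matches, all on the other strand, where they read GTCAA.
WRKY33: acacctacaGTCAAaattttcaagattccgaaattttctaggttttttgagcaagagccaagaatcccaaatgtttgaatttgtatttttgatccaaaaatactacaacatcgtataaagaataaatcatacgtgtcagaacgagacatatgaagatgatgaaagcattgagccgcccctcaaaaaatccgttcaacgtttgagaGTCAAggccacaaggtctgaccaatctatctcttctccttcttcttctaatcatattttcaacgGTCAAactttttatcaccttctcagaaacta
TTGAC was in 67.5% of the lowered windows, 50.6% of the raised and 50.3% of all.

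Other genes with deep falls had varied roles. CML38, a calmodulin-like calcium sensor, fell from 83.0, 44.0 and 31.8 RPM to 5.59, 9.70 and 16.6 RPM (log2 change -2.27, SE 0.42, limma adjusted p = 0.00433). SZF1, a salt-induced CCCH zinc finger protein, fell from 214, 121 and 91.1 RPM to 29.4, 29.9 and 27.7 RPM (log2 change -2.18, SE 0.33, limma adjusted p = 0.00043), and RTFL12, a small growth-regulating peptide, from 99.5, 61.7 and 108 RPM to 13.3, 23.4 and 22.3 RPM (log2 change -2.16, SE 0.30, limma adjusted p = 0.000145). The dehydrated SZF1 values were the tightest of the 3. PP2-A5, a lectin-like phloem protein, fell by log2 2.19 (limma adjusted p = 0.00637). MYB51, an activator of indole glucosinolate synthesis, fell by log2 1.14 (limma adjusted p = 0.0371), while 7 of the 14 listed glucosinolate genes, MYB28, MYB29, MAM1, BCAT4, CYP79F1, CYP83A1 and CYP79B3, were separate and higher without a call (5.01% of all tested genes). Among genes named by rule, the calls of DDF1, DDF2, SZF1, RTFL12, ASAT1 and EXPA16 held with each single bes1-D library left out, and all the others were lost without control replicate 1. These fits keep the shared spread, which for DDF1 and DDF2 rests largely on libraries near 0. For DDF2 the held call carries no weight, and for DDF1 little.

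Further lowered genes were chosen after their values were seen, as familiar members of early signalling. RBOHD, the NADPH oxidase of the defence oxidative burst, was 206, 115 and 75.2 RPM in control and 51.5, 44.2 and 48.2 RPM in dehydration (log2 change -1.33, limma adjusted p = 0.00866). The kinase gene MPK3 was 428, 358 and 187 RPM and 132, 160 and 134 RPM (log2 change -1.11, limma adjusted p = 0.0394). The touch-induced calmodulin-like gene TCH2 was 99.0, 65.6 and 52.5 RPM and 21.8, 22.9 and 41.8 RPM (log2 change -1.33, limma adjusted p = 0.0315). All 3 were separate. CBL1, a calcium sensor of salt and drought signalling, was 25.9, 21.7 and 10.5 RPM in control and 6.14, 7.71 and 10.6 RPM in dehydration (log2 change -1.14, limma adjusted p = 0.0485), and here control replicate 3 fell within the dehydrated range. SYP122, a syntaxin of the plasma membrane, fell by log2 1.51 (limma adjusted p = 0.000145).

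Several gene lists had no called member in bes1-D. They were those of photosynthesis (22 genes, median change 0.03), autophagy (15, 0.16), the circadian clock (12, 0.08), heat shock and zinc finger stress factors (10, 0.32), and salicylic acid and defence (13, -0.04). This covers the listed genes only, since the zinc finger gene SZF1 and the defence oxidase gene RBOHD, outside these lists, were called lower. PR1, the classic salicylic acid marker, was 72.5, 89.4 and 106 RPM in control and 46.8, 59.9 and 36.9 RPM in dehydration. The groups were separate, but the change was small beside its error (log2 -0.90, SE 0.74, limma adjusted p = 1). Over all 24 lists other than the markers 27 of 297 tested members were called, beside 233 of all 19824 tested genes (1.18%). The lists were chosen with earlier results of these data known, so these counts are a description and not a test.

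In dehydrated WT leaves 59 genes were called (0.298%), 23 higher and 36 lower. Which genotype had more calls depended on the test. DESeq2 called 513 genes in WT and 412 in bes1-D, the authors' deposited table gives yes to 554 and 542, and 2534 and 1621 genes had an unadjusted limma p under 0.05. In WT 991 genes were separate and higher and 2777 separate and lower, whereas in bes1-D these were 994 and 673. The 2 responses shared 15 called genes, 6.44% of the bes1-D calls and 25.4% of the WT calls, 8 higher in both, 7 lower in both and none opposite. RAB18, LEA4-5, LBD1 and AFP3 rose in both, and PYL6, ERF5 and ERF6 fell in both. ERF5 was 46.6, 27.1 and 49.9 RPM in WT control and 9.22, 13.2 and 20.0 RPM in dehydrated WT, a log2 change of -1.53 in each genotype. PYL6 fell by log2 2.56 in bes1-D and 2.69 in WT. Of the 79 genes raised in bes1-D 75 had a positive change in WT, and of the 154 lowered genes 111 had a negative one. Over all tested genes the median change in WT was -0.12, so most genes had a negative change there. The median changes of the raised and lowered genes in WT were 0.73 and -0.30, against 1.12 and -1.25 in bes1-D. These genes were picked by their change in bes1-D, which tends to make that side the larger. The WT count rests on few libraries. It was 1 without control replicate 1, 8 without control replicate 2, 392 without control replicate 3, 3, 1 and 5 without dehydration replicates 1, 2 and 3, and 36 and 123 without bes1-D dehydration replicate 1 and control replicate 3, through the shared estimate of the spread.

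**Figure D4:**
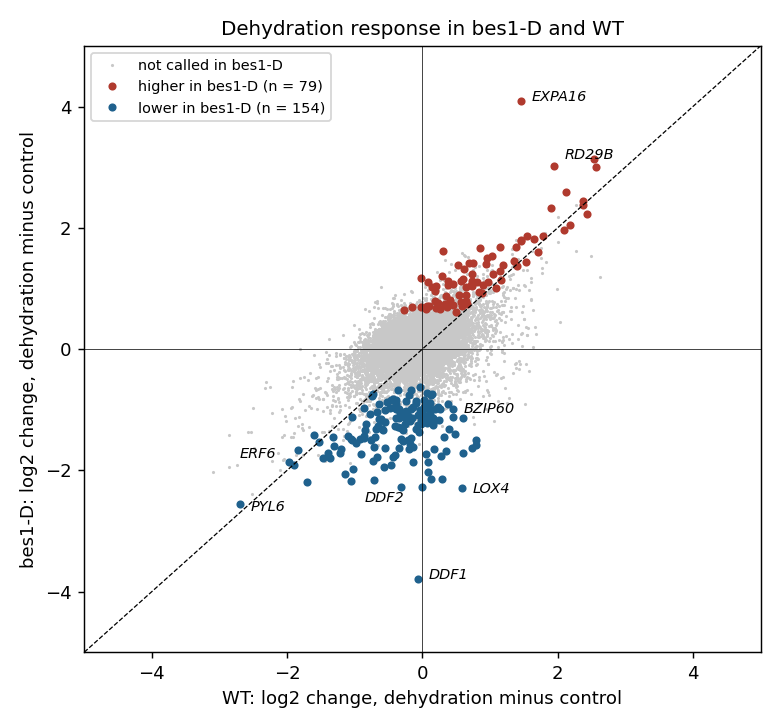
Log2 change under dehydration of each tested gene in WT (horizontal axis) and bes1-D (vertical axis), with the 79 genes called higher in bes1-D in red, the 154 called lower in blue and the rest in grey; the dashed line marks equal change. The red genes lie along or above the line (WT median 0.73), while many blue genes gather near a WT change of 0 (WT median -0.30), DDF1 at -0.07 in WT and -3.80 in bes1-D.

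The difference between the responses was tested as an interaction, and 13 genes passed (0.0656%), at bes1-D minus WT values from -1.41 to -3.73. In all 13 the change was more negative in bes1-D than in WT. The largest was that of DDF1, which in WT was 0.0687, 0.208 and 0.310 RPM in control and 0.241, 0.102 and 0.137 RPM in dehydration (bes1-D minus WT -3.73, SE 0.36, limma adjusted p = 4.93e-07). As above, the SE of DDF1 rests largely on libraries near 0, so this p-value carries little weight. LOX4 was 9.96, 12.2 and 13.3 RPM in WT control and 16.0, 22.5 and 15.5 RPM in dehydrated WT, separate and higher, whereas in bes1-D it fell (difference -2.87, SE 0.55, limma adjusted p = 0.0231). BZIP60, a factor of the unfolded protein response, was 184, 120 and 143 RPM in bes1-D control and 64.3, 60.1 and 80.2 RPM in dehydration, against 57.5, 53.5 and 61.8 RPM and 73.0, 65.9 and 102 RPM in WT (difference -1.57, SE 0.29, limma adjusted p = 0.0231). In these genes the bes1-D control leaves held the high values. In WT LOX4 and BZIP60 had all dehydrated libraries above all controls.

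The same arrangement held through the rest of the 13. ASAT1, an acyltransferase that esterifies sterols, was 15.2, 8.27 and 10.9 RPM in bes1-D control and 4.49, 4.57 and 4.14 RPM in dehydration, against 4.09 to 5.30 and 4.33 to 6.59 RPM in WT (difference -1.41, SE 0.28, limma adjusted p = 0.0375). AT1G78410, which encodes a VQ motif protein, was 33.5, 26.3 and 43.6 RPM in bes1-D control and 6.83, 6.70 and 8.37 RPM in dehydration, against 4.84 to 5.13 and 4.75 to 8.81 RPM in WT (difference -2.43, SE 0.36, limma adjusted p = 0.00134). In each of the 13 genes every bes1-D control library stood above every WT control library and above every dehydrated bes1-D library. A gene picked for this difference is likely to show such an order, so it is given as a description. The remaining members were DDF2, AT2G25460, AT3G01830, AT5G05300, AT2G17660 (RIN4 family), AT1G66090 (TIR-NBS class), AT3G04640 and AT5G52020 (AP2 type). AT2G17660 had a median of 0.306 RPM in the 32 libraries of other genotypes. Like that of DDF1, its SE rests largely on libraries near 0, and its test carries little weight.

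The count of 13 depended on single libraries. It was 3 without bes1-D control or dehydration replicate 1, or without WT control replicate 1 or WT dehydration replicate 3. It was 4 without WT control replicate 2, 5 without WT dehydration replicate 2, 8 without bes1-D dehydration replicate 2, 20 without WT dehydration replicate 1, and 27 and 29 without bes1-D control replicates 2 and 3. For DDF1 and AT1G78410 the difference from WT was called in each alternative with the spread taken from all libraries. For DDF1 that spread rests largely on libraries near 0. For ASAT1, BZIP60 and AT3G04640 it was lost with median-of-ratios scaling, which brought the median difference over all tested genes, 0.19 in the deposited scaling, to 0. For DDF2, which had at most 0.0346 RPM in WT, it was lost in both count tests. EXPA16, with the largest rise in bes1-D, was not called for a difference from WT. In WT it was 22.5, 6.86 and 25.3 RPM in control and 25.1, 61.3 and 56.9 RPM in dehydration, so that the bes1-D controls were the lowest of the 4 groups and the dehydrated groups overlapped (difference 2.64, SE 0.81, limma adjusted p = 0.502). RD29B reached 2.72 to 4.13 RPM in dehydrated WT and 4.62 to 27.4 RPM in dehydrated bes1-D (difference 1.08, SE 1.02, limma adjusted p = 0.918).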

How the data were processed

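RNA from leaves was sequenced as single reads of 50 bases, per the labels. The authors deposited a signal for every gene and library, named RPM per the file headers. The design had assumed RPM; it is treated as a signal because the columns sum to 985308 to 1023140, and the test is unchanged. Per the submitters' processing notes, the tools GSNAP and DESeq2 and the build TAIR10 belong to the work, with no role or version given. Whether strand was used, and how shared reads were counted, the sources do not say. Calls of yes or no in the authors' deposited table cover 542 genes with yes for bes1-D dehydration, by an unnamed test; 533 of them were tested here and 197 shared the present calls (84.5% of the present and 37.0% of the authors' calls). The 24 libraries with no column were not analysed here.

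Of 28775 genes with an identifier, 28009 matched a gene table of TAIR10.1, the source of symbols. All 279 organelle genes are listed at 0. Within 0.01 reads, 100% of values were whole multiples of 1 read (26.3 to 29.8 reads per RPM), and such recovered reads served edgeR and DESeq2, which called 242 and 412 genes. Replicates differed by more than sampling noise (chi-square per degree of freedom 28.4 to 155 in bes1-D); a level of 3 reads covers counting error only.

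A gene was tested if 2 or more libraries reached 1 RPM, which left 19824, fitted as log2(RPM + 0.5) by group over all 40 libraries with limma 3.58.1 and a mean-variance trend (25 residual degrees of freedom). Tests are two-sided, adjusted by Benjamini-Hochberg over all tested genes, and called at adjusted p under 0.05. The difference from WT is the interaction. Fits that leave out a library keep the shared spread. Numbers were taken to pair bes1-D libraries, since deviations of same-numbered controls and dehydrated libraries correlated at 0.27, 0.16 and 0.26. Differently numbered bes1-D libraries gave -0.25 to 0.09. In WT same-numbered libraries gave -0.37, 0.50 and 0.35 and were not taken as pairs. Differently numbered WT libraries reached 0.52, so a correlation of this size does not by itself show a pair. On simulated data of 19824 genes for bes1-D dehydration, 35% of 2-fold and 89% of 4-fold changes were recovered, with 9 false calls. Simulated counts were drawn independently for each gene and library. They lack the deviations shared across genes in the real libraries, so these figures need not hold for the real data.

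The 24 gene lists and 6 marker lists, and the members, were chosen with earlier results of these data known. Named by rule were up to 4 called members per list; the 10 most raised and 10 most lowered called genes with a symbol, 5 RPM and no overlap; up to 6 called differences from WT each way with a symbol and 5 RPM, and called list members; and BES1, RD26, WRKY46, WRKY54 and WRKY70. Other genes named as called were chosen after their values were seen, as were the motifs and promoter windows, read from the RefSeq TAIR10.1 genome (300 bases before the gene start; 19744 tested genes had one). Alternatives were edgeR 4.0.16, DESeq2 1.42.0, median-of-ratios scaling, removal of the trend with transcript length, pseudocounts of 0.1 and 1, a filter at 5 RPM or none, the compared libraries alone, a replicate block and leaving out single libraries.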

Additional observations from a re-analysis of the deposited data

Results flagged for a closer look

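The dehydration response of 13 genes differed between bes1-D and WT in the interaction test (limma, adjusted p under 0.05), each more negative in bes1-D. As log2 changes in bes1-D minus WT, with the 6 bes1-D and 6 WT libraries behind each, the values were -3.73 for DDF1, -2.87 for LOX4, -2.43 for AT1G78410, -2.37 for AT2G25460, -2.36 for AT3G01830, -2.29 for AT5G05300, -2.28 for DDF2, -2.27 for AT2G17660, -2.11 for AT1G66090, -1.81 for AT3G04640, -1.72 for AT5G52020, -1.57 for BZIP60 and -1.41 for ASAT1. In WT the largest log2 change among them was 0.79 (AT2G25460 and AT5G05300) and the lowest -0.14 (AT5G52020), none of them called. DDF2 reached 1 RPM in the bes1-D control libraries alone, so its test carries no weight. DDF1 had a median of 0.239 RPM and AT2G17660 of 0.306 RPM in the 32 libraries of other genotypes, so their SEs also rest largely on libraries near 0. Control replicate 1 of bes1-D held the highest value of DDF1, DDF2, LOX4, BZIP60, ASAT1, AT2G25460, AT3G01830, AT5G05300, AT2G17660, AT1G66090, AT3G04640 and AT5G52020, and without that library 3 differences passed in place of 13.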

How the results depend on the processing

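Genes changed in bes1-D numbered 233; DESeq2 called 412, the compared libraries alone 5, and leaving out single bes1-D libraries 20 (without control replicate 1) to 256 (without control replicate 3). With the pairing as a replicate block the 6 libraries gave 0 (limma; 1541 at unadjusted p under 0.05). The higher and lower split was 79 and 154 in the deposited scaling, 35 and 222 with median-of-ratios scaling, 34 and 208 with edgeR, 92 and 320 with DESeq2, 90 and 257 with removal of the length trend, and 33 and 202 without the pair numbered 3, an alternative chosen after seeing the data, like the blocked fit with pooled spread (254). For the WT count of 59, whose alternatives were also added, DESeq2 gave 513, removal of the length trend 265 (142 higher and 123 lower, from 23 and 36), the fit without bes1-D pair 3 89, 96 passed with a pseudocount of 1, and no filter gave 28, the compared libraries 0 (2044 at unadjusted p under 0.05), the replicate block 0 (1989) and single libraries left out 1 to 392. For the 13 differences, DESeq2 gave 97, edgeR 31, median-of-ratios scaling 29 (3 of them higher in bes1-D minus WT), length removal 48, the fit without pair 3 gave 26, the compared libraries 0 (612), the block 0 (794) and single libraries 3 to 29. The 27 called list members became 14 with no filter, 3 with the compared libraries, 0 with the block, and 2 to 23 with single bes1-D libraries left out. Fewer samples in the fit leave fewer degrees of freedom; other causes were not tested. The total counts under the other alternatives in processing stayed within 1.5 times.

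The log2 change of BES1 (0.03) turned to -0.0431 with DESeq2, -0.0319 with edgeR, -0.0581 with length removal, -0.0698 with median-of-ratios scaling and -0.29 without pair 3 (single libraries left out: -0.14 to 0.21). That of WRKY70 (0.00) turned to -0.0362, -0.0252, -0.0253, -0.0947 and -0.11 under the same 5 (-0.36 to 0.33), and WRKY54 ranged from -0.41 to 0.17 with single libraries left out. No named gene that was called changed sign, although 135 of its values under other alternatives and 119 with single libraries left out missed the threshold. Depth limits genes near 0.1 RPM, such as DDF2 in WT.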
